A study of Mus musculus with 15 samples.

Results

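Cytosolic ribosomal protein genes were followed in the knee joint synovium of mice with collagen-induced arthritis (CIA), a model in which immunization with type II collagen leads to joint inflammation. A gene was included when its array annotation gave a single symbol that begins with Rpl or Rps and a digit or p and a digit, or the symbol Rpsa. Rps6 kinase genes were left out. This gave 51 genes of 18194 named on the array, each represented by its brightest probe set. They comprised 21 subunits of the small ribosomal subunit, 20 of the large subunit, 2 stalk proteins, 5 paralogues, 2 genes that carry such a name without coding for a ribosome subunit (Rpl7l1 and Rps19bp1) and 1 pseudogene symbol.

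Total RNA was hybridized to 15 Affymetrix arrays, 3 in each of 5 groups: healthy naive synovium, and CIA synovium graded as having no swelling, mild, moderate or severe swelling. The labels state for all samples, the naive ones included, an immunization on day 0 with 100 ug of type II collagen in FCA and an intraperitoneal boost of the same dose on day 21. That text was read as a description of the CIA groups. If the naive mice had received the collagen too, a difference from naive would not reflect immunization. Strain and age are not given in the sources used here. Nothing says whether the 3 arrays of a group come from separate animals, so p-values reflect the scatter of these arrays alone, part of which could be technical, and having 3 arrays a group sets the precision.

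Ribosomal proteins assemble with the ribosomal RNAs into the small subunit, which holds 18S RNA and reads the mRNA, and the large subunit, which joins amino acids. Most are coded by a single active gene each, and cells need them in balanced amounts. Their mRNAs begin with a tract of pyrimidines, the 5′ terminal oligopyrimidine (TOP) motif, through which mTOR signalling and Larp1 control their translation. A few have paralogues with narrow expression: Rpl3l replaces Rpl3 in striated muscle, Rpl39l is known from male germ cells, and Rpl22l1 can stand in for Rpl22.

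Windows of 30 bases around the RefSeq transcription start (12 bases before it and 18 from it on, build GRCm38.p6, given 5′ to 3′ on the strand of the gene) are shown for 8 genes. They were picked from genes whose changes were among the largest, stood apart from those of the other subunits or went the other way. Rps19 also stood apart but is not shown. The motif CTTTC is in capitals.
Rpl39l (chr16:10170216-10170245, plus strand): ccaggcCTTTCcggatttccggtggtcgcc
Rpl12 (chr2:32961700-32961729, plus strand): ggagcaggatccgtcttttcggCTTTCggc
Rpl35 (chr2:39005114-39005143, minus strand): ccccgccCTTTCctCTTTCtctcgaaccag
Rps18 (chr17:33955648-33955677, minus strand): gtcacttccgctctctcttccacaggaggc
Rps9 (chr7:3704029-3704058, plus strand): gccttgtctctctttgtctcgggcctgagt
Rpsa (chr9:120127754-120127783, plus strand): ggttatttaaggacgtcatttccggccgcc
Rpl22l1 (chr3:28805496-28805525, plus strand): cggcgcaagcccgttctcttcccacggctg
Rpl3l (chr17:24727814-24727843, plus strand, the more upstream of 2 listed starts): tgttctagctctgtcatttgacctctggtg
An unbroken run of C and T covered the start base in Rpl35 (18 bases), Rps18 (11 bases) and Rps9 (9 bases), while the listed start of the other 5 genes was a purine. A run of at least 5 bases was found in 13 of the 44 ribosomal protein genes with an entry (29.5%) and in 11.8% of all 27025 genes in the table. CTTTC, searched on the strand of the gene, lay in the window of 11 of the 44 genes (25%) and of 1243 of all genes (4.6%). A second motif, CCGGAAG or its reverse complement, the core to which ETS family factors bind, was searched in the 300 bases from 250 before the start to 50 after it. It occurred in 21 of the 44 genes (47.7%), Rpsa, Rpl35, Rps18 and Rpl39l among them, and in 9.93% of all genes. Rpl12, Rps9, Rpl22l1, Rpl3l and Rps19 lacked it, and Rps19 lacked CTTTC in its window too. These shares describe letters and say nothing of binding.

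The 43 canonical subunit genes fell into 2 ranges of signal. In 35 of them the mean over the 15 arrays was above 1000, up to 8869 for Rps29, a small subunit protein, and 19 of the 100 genes with the highest mean signal on the array were ribosomal protein genes. The other 8 lay between 0.82 and 229 (Rpl39, Rpl27a, Rpl12, Rps25, Rpl14, Rps27, Rps6 and Rps16). Signals of different probe sets do not rank transcripts, and another 110 probe sets that list a ribosomal protein symbol among several were not assigned to a gene. Rps16 and the pseudogene symbol Rps15a-ps6 did not pass the filter on low signal, so 49 genes were tested. Rps4l passed it on 5 of the 15 arrays, all from swollen joints, so its difference from naive arrays and from those without swelling was fixed by the filter; it is counted as 1 gene higher in those comparisons and supports none of them.

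The bright subunit genes gave less signal in naive synovium than without swelling or with severe swelling. Their median signal was 4828, 4630 and 4779 on the naive arrays, 6870, 6013 and 6068 without swelling, 5297, 4828 and 5681 in mild, 4506, 6259 and 5760 in moderate and 6425, 6030 and 7047 in severe swelling. The arrays without swelling and those with severe swelling lay above every naive array, whereas mild and moderate arrays overlapped naive. Together the 35 genes made up 2.66% to 2.73% of the summed signal of all named genes on naive arrays, against 3.25% to 3.67% without swelling, 2.91% to 3.40% in mild, 2.90% to 3.6% in moderate and 3.61% to 4.14% in severe swelling. All naive arrays were below all CIA arrays by this share. In whole tissue, more cells rich in these mRNAs and more mRNA per cell cannot be told apart.

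**Figure D1:**
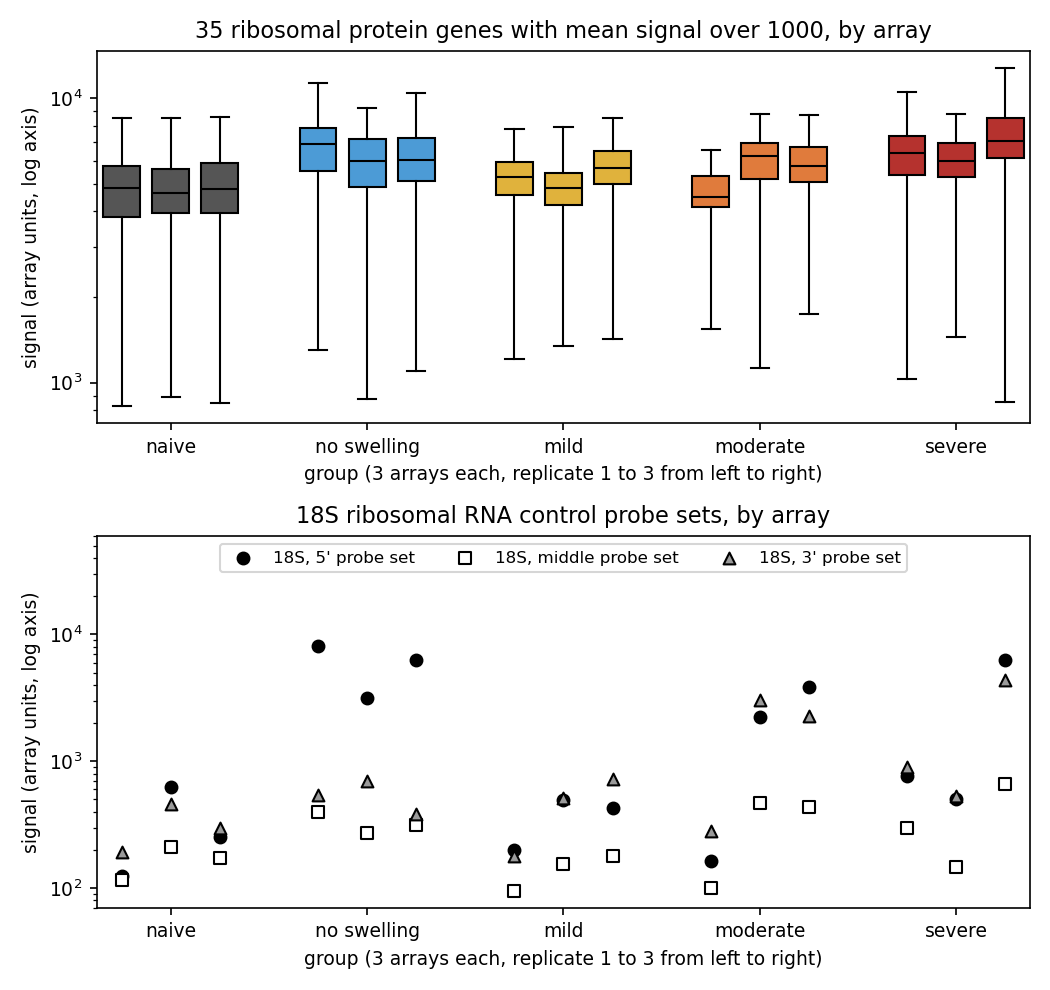
Upper panel: signal on each array (log axis) of the 35 canonical ribosomal protein genes with mean signal over 1000; boxes span the quartiles, the line is the median and whiskers reach the lowest and highest gene. Lower panel: signals of the 3 control probe sets for 18S ribosomal RNA on the same arrays (log axis). The medians of the upper panel lie between 6030 and 7047 with severe swelling and between 4630 and 4828 on naive arrays; the 18S probe sets spread widely within groups.

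Array measures also differed between groups. The geometric mean of 9 probe sets for spiked hybridization controls was 671 to 810 on naive arrays and 547 to 1066 without swelling. It was 420 to 546 in mild, 345 to 683 in moderate and 422 to 631 in severe swelling. Within each of the 5 groups the array highest in median ribosomal protein signal was also the highest in these controls. Replicate 1 of moderate swelling was the lowest of the 15 arrays in both (4506 and 345). The actin control gave a 3′ over 5′ signal ratio of 0.89 to 1.03 on naive arrays, 1.07 to 1.16 without swelling, 1.13 to 1.19 in mild, 1.19 to 1.27 in moderate and 1.21 to 1.27 in severe swelling. Among the 35 genes, the deviations from the group means had a median correlation of 0.78 across the 15 arrays, which share their scaling. Their part in the results was not tested.

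The dependence on scaling was large enough to stand beside the counts. The signals were deposited scaled to a common trimmed mean. When they were quantile normalized, aligned on array medians or aligned on the hybridization controls, the median log2 fold change of the 49 genes exceeded that of all genes in each CIA group against naive, by 0.10 to 0.55. The size and the order of the groups changed: with the deposited scaling the median fold was 0.37 without swelling, 0.16 in mild, 0.24 in moderate and 0.45 in severe swelling, and after quantile normalization it was 0.23, 0.40, 0.54 and 0.46 in the same order of groups. Aligning on the hybridization controls moved the median of all genes itself to 0.58 in mild, 0.47 in moderate and 0.53 in severe swelling.

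**Figure D2:**
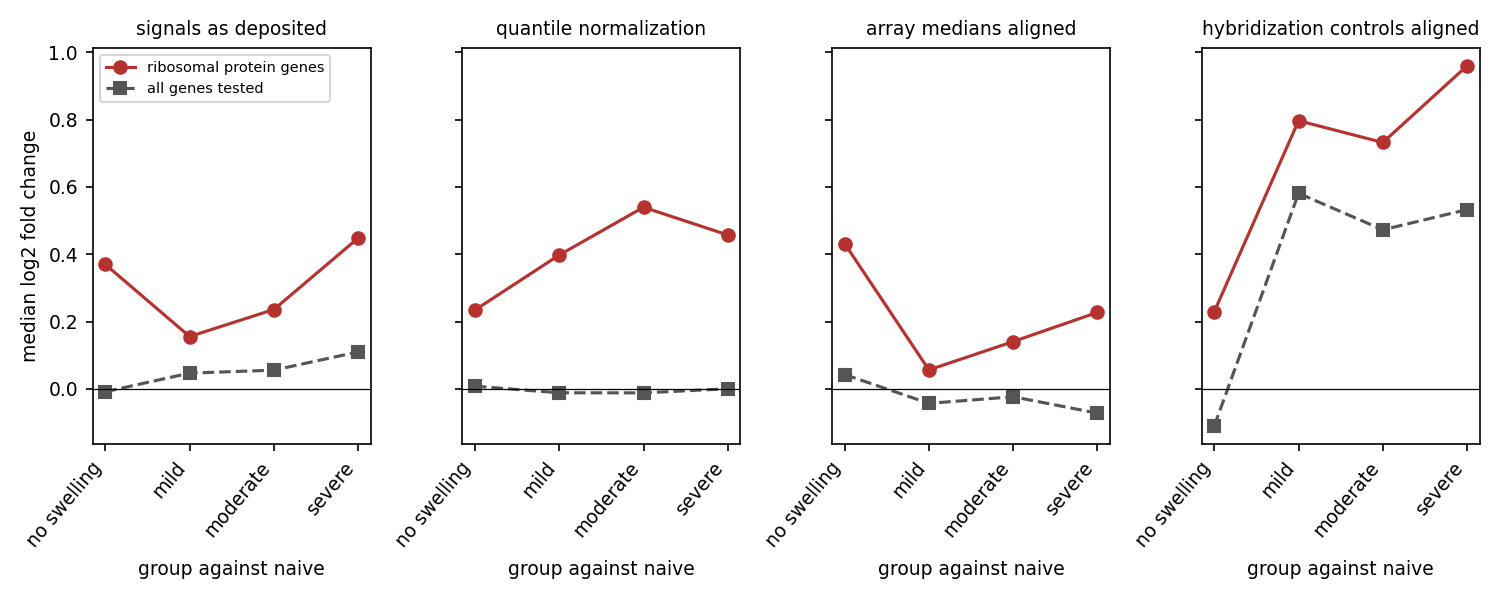
Median log2 fold change against naive in each CIA group, for the 49 ribosomal protein genes tested (circles) and for all 14315 genes tested (squares), under 4 scalings of the arrays. The circles lie above the squares throughout, while the dip in mild swelling seen with the deposited scaling (0.16) is absent after quantile normalization (0.40).

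Synovium of immunized mice without swelling was compared with naive synovium first. Limma, adjusted over 14315 genes, called 4 of the 49 genes higher and 0 lower at an adjusted p under 0.05, while 3.28% of all genes were called (1.52% higher and 1.76% lower). The median log2 fold change of the 49 genes was 0.37, against -0.01 over all genes, and all 35 bright subunit genes had a positive value. The groups did not overlap in 38 of the 49 genes, where 27% of all genes did not overlap. The count of calls depends on the probe set. Of the genes not called through their brightest probe set, 18 had several. In a fit of every probe set, 9 of these 18 had another called higher by limma and 0 had another called lower. No share of all genes called is given for that fit.

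Rpsa, a small subunit protein also known as the laminin receptor, had the highest fold. Its signal was 2883, 2857 and 2959 on naive arrays, 5158, 4586 and 4152 without swelling, 4547, 3854 and 5316 in mild, 4439, 5529 and 5286 in moderate and 6658, 5591 and 7047 in severe swelling. Every CIA array lay above every naive array. The log2 difference from naive was 0.67 ± 0.14 without swelling (limma SE, n = 3 each; adjusted p = 0.0195). The other called genes were Rpl13a, a large subunit protein (0.61 ± 0.13, adjusted p = 0.024), Rps18, in the head of the small subunit (0.56 ± 0.14, adjusted p = 0.043), and Rps26, at the mRNA exit (0.54 ± 0.13, adjusted p = 0.0334), all by limma. The calls on Rpl13a and Rps18 depend on the probe set. In a fit of every probe set, no other tested probe set of Rpl13a (0.19 to 0.25) or Rps18 (0.34 and 0.37) was called by limma. After quantile normalization the call on Rps18 was lost (0.41, limma adjusted p = 0.146) and Rps4x was called higher (0.38, limma adjusted p = 0.0374). With the deposited scaling Rps27 and Rpl27a had folds of similar size, 0.64 and 0.64, but wider spread (limma adjusted p = 0.337 and 0.233). The count of 4 fell to 0 when any single naive array or replicate 1 of the arrays without swelling was left out. It was 17 with array quality weights and 18 when only these 2 groups were fitted. No share of all genes called is given for those fits.

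Mild swelling against naive gave 11 genes higher and 1 lower of 49 by limma, where 40.1% of all genes were called (23.1% higher and 17.1% lower). The median was 0.16, against 0.05 over all genes. The groups did not overlap in 25 of the 49 genes, where 53.7% of all genes did not overlap. Of the 11 genes that rose 5 were bright subunit genes and 6 were not. Rpl12 (1.24 ± 0.14), of the stalk base, Rps27 (1.03 ± 0.34), Rps25 (0.86 ± 0.14), needed for initiation at some viral internal entry sites, and Rps6 (0.78 ± 0.16), the substrate of the S6 kinases, were all dim probe sets. Rps19, mutated in human Diamond-Blackfan anaemia, rose by 0.70 ± 0.17, Rpsa by 0.64 ± 0.14 and Rps18 by 0.51 ± 0.14. After quantile normalization 38 of the 49 genes were called higher and 1 lower, unlike the low count with the deposited scaling. The share of all genes called after that normalization is not given. These counts therefore do not show whether the rest of the array changed alike.

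Moderate swelling against naive gave 16 genes higher and 1 lower of 49 by limma, where 54.7% of all genes were called (30.9% higher and 23.8% lower). The median was 0.24, against 0.06 over all genes. The groups did not overlap in 19 of 49 genes, where 63.7% of all genes did not overlap. Rpl39l (2.04 ± 0.26), Rpl12 (1.49 ± 0.14) and Rps19 (1.17 ± 0.17) had the highest folds. Replicate 1 of moderate swelling had a ribosomal protein median of 4506, below every naive array. Without it 25 genes were called higher, in a fit for which no share of all genes called is given. After quantile normalization the count was again 38 higher and 1 lower, likewise without the share of all genes.

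Severe swelling against naive gave the most calls, 32 of 49 genes higher and 2 lower by limma, where 55.2% of all genes were called (32.3% higher and 22.9% lower). The median log2 fold change was 0.45, against 0.11 over all genes. The groups did not overlap in 42 of the 49 genes, where 62.2% of all genes did not overlap. All 42 canonical genes tested had positive values, from 0.11 in Rpl39 to 1.46 in Rpl12. Of the 35 bright subunit genes 26 were called higher, 11 of 17 in the small subunit and 15 of 18 in the large subunit and stalk. The count was 33 after quantile normalization and 16 when array medians were aligned, with no share of all genes for either.

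**Figure D3:**
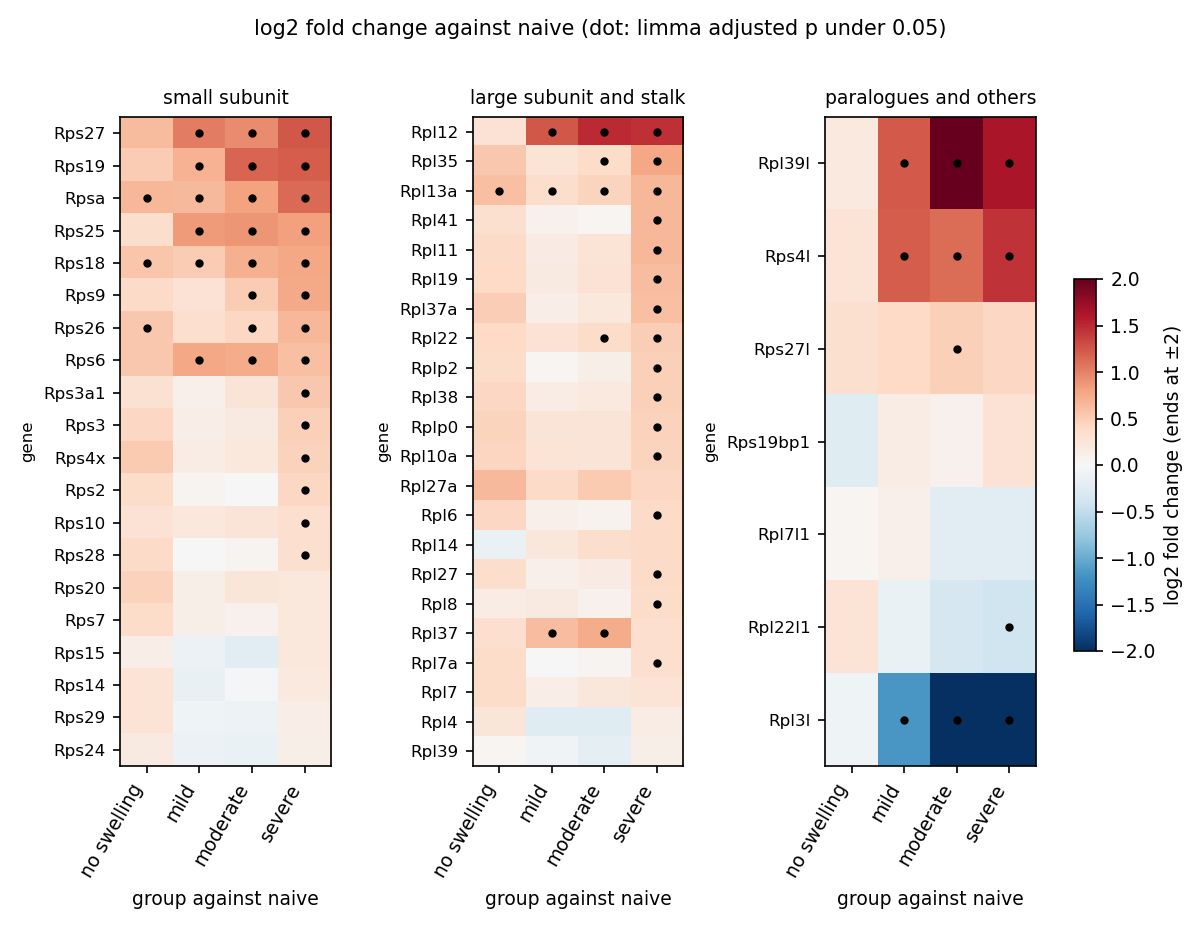
Log2 fold change against naive (colour, ending at ±2) of the 49 ribosomal protein genes tested in the 4 CIA groups (columns), ordered within 3 blocks by the value in severe swelling; a dot marks a limma adjusted p under 0.05. The severe column holds the most dots (32 higher, 2 lower, with 15 genes not called), while the column without swelling holds 4, and Rpl3l turns blue in mild, moderate and severe swelling.

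Within the small subunit the called genes in severe swelling ranged widely. Rps19 had signals of 1557, 1670 and 1699 on naive arrays, 2701, 2200 and 2130 without swelling, 2667, 2020 and 3552 in mild, 3344, 3679 and 4119 in moderate and 3432, 3944 and 4117 in severe swelling. Moderate and severe arrays lay above all naive arrays and all arrays without swelling. The log2 difference of severe from naive was 1.21 ± 0.17 (limma adjusted p = 1.94e-05, n = 3 each). Rpsa reached 1.14 ± 0.14 (limma adjusted p = 6.06e-06), while Rps18 and Rps9 stood at 0.77 ± 0.14 and 0.76 ± 0.13. At the other end Rps29, with 8645, 8761 and 10737 in severe swelling and 8496, 8506 and 8555 on naive arrays, differed by 0.13 ± 0.14 (limma adjusted p = 0.437), although these arrays did not overlap, and both of its other probe sets were called higher (0.42 and 0.39, limma adjusted p = 0.0288 and 0.0279).

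Rps24 (0.12 ± 0.14), Rps14 (0.19 ± 0.13) and Rps15 (0.20 ± 0.14) of the small subunit also did not pass in severe swelling. These results depend on the probe set. The other probe set of Rps14 (0.72) and that of Rps15 (0.89) were called higher by limma in a fit of every probe set, as were 4 of the other 5 of Rps24, at 0.42 to 1.37. Of the genes not called through their brightest probe set, 9 had several, and all 9 had another that was called higher (Rpl7, Rpl7l1, Rps7, Rps14, Rps15, Rps20, Rps24, Rps27l and Rps29). No gene of the 20 with several tested probe sets had calls in opposite directions in severe swelling.

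Among the bright genes of the large subunit and stalk the differences of severe from naive ran from 0.15 to 0.78, and among those of the small subunit from 0.12 to 1.21. Rpl35, which binds near the exit of the peptide tunnel, had 7153, 6179 and 8005 in severe swelling and 4150, 3991 and 4205 on naive arrays, with no overlap (0.78 ± 0.15, limma adjusted p = 0.000305). Rpl13a (0.67 ± 0.13), Rpl41 (0.67 ± 0.19), Rpl11 (0.66 ± 0.15), which binds Mdm2 when ribosome assembly fails, and the stalk proteins Rplp2 (0.48 ± 0.14) and Rplp0 (0.45 ± 0.13) followed. Rpl4 did not pass, with 7453, 6030 and 8603 in severe swelling and 6652, 6056 and 6953 on naive arrays (0.15 ± 0.15, limma adjusted p = 0.39); the groups overlapped.

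Rpl12 stood apart with a dim probe set. Its signal was 73.3, 69.5 and 61.6 on naive arrays, 107, 80.9 and 73.8 without swelling, 183, 171 and 195 in mild, 242, 223 and 197 in moderate and 225, 212 and 209 in severe swelling. Every array with swelling lay above every naive array and every array without swelling. The log2 difference of severe from naive was 1.46 ± 0.14 (limma adjusted p = 5.76e-07), and that of mild from no swelling 0.96 ± 0.14 (limma adjusted p = 0.000113). Rps25 differed by 0.51 ± 0.14 in mild against no swelling (limma adjusted p = 0.00796), a call that was lost after quantile normalization (0.34, adjusted p = 0.063).

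To see which genes departed from the rest of the family, each array was also centred on the median of the 35 bright subunit genes, a setting chosen after the data were seen. In severe swelling against naive, limma then called 8 of 49 genes higher and 7 lower. The share of all genes called with this centring is not given. Relative to the family Rpl39l was higher by 1.18, Rpl12 by 1.0, Rps19 by 0.75, Rpsa by 0.68, Rpl35 by 0.32, Rps18 by 0.31 and Rps9 by 0.30; the other call was Rps4l, which the filter fixed. The genes lower relative to the family were Rps14 (-0.27), Rpl4 (-0.31), Rps29 (-0.33), Rps24 (-0.34), Rpl7l1 (-0.67), Rpl22l1 (-0.87) and Rpl3l (-3.20). These values are for the brightest probe set of each gene: other probe sets of Rps14, Rps29, Rps24 and Rpl7l1 were called higher against naive, as given for each gene. Genes higher relative to the family also varied by probe set. Against naive without centring, other probe sets stood at 0.44 and 0.80 for Rps18, 0.19 to 0.86 for Rpl35 and 0.62 and 1.40 for Rps9. The median of the 35 bright subunit genes was 0.45 there. The centred values give no direction for a gene on its own.

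**Figure D4:**
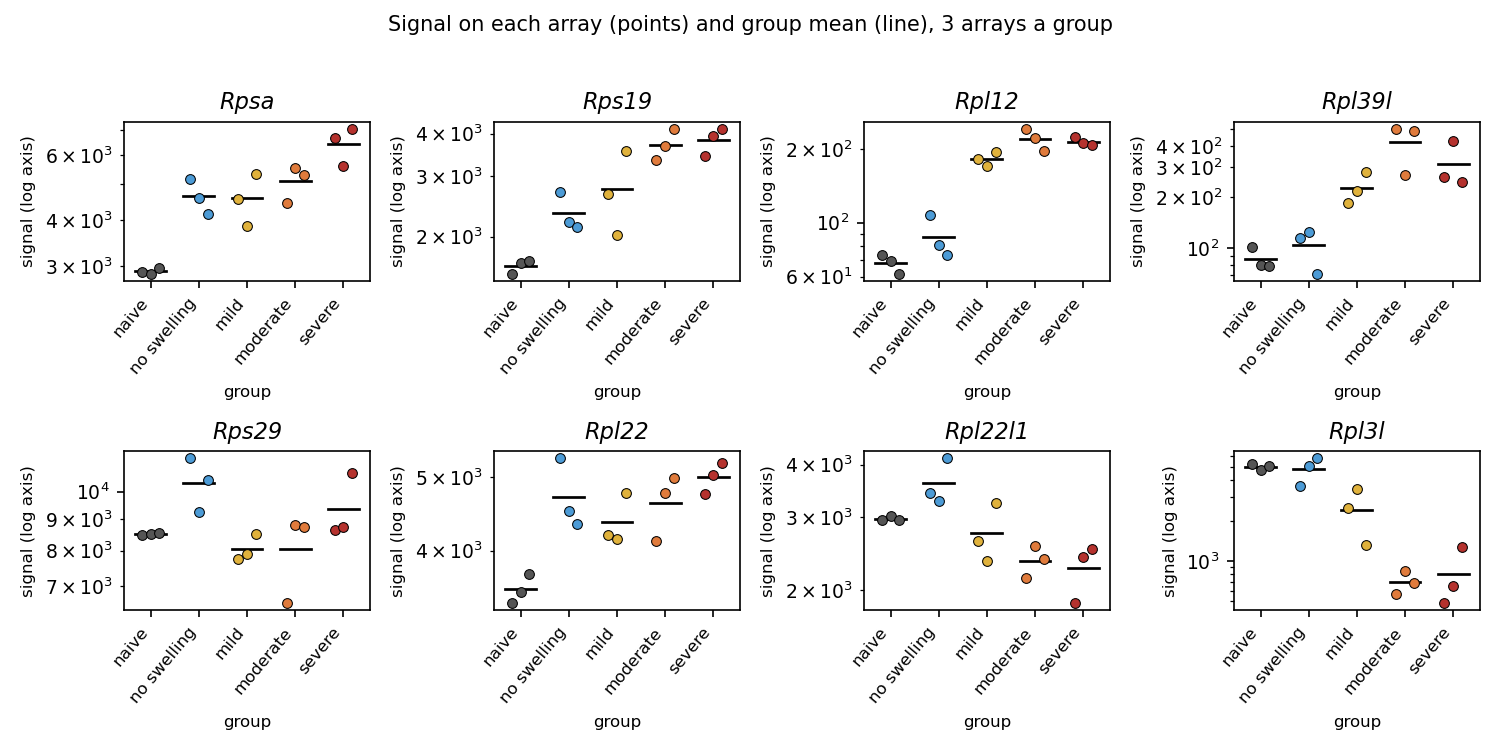
Signal (log axis, its range differing by panel) of 8 ribosomal protein genes on each array (points) with the group mean (line), 3 arrays a group. Rpsa is lower on every naive array than on any CIA array, Rpl12 separates at mild swelling, Rps29 lies between 8645 and 10737 in severe swelling and between 8496 and 8555 on naive arrays, and Rpl3l lies between 487 and 1278 in severe swelling and between 4738 and 5234 on naive arrays.

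The paralogues went opposite ways. Rpl3l had signals of 5234, 4738 and 5126 on naive arrays, 3602, 5082 and 5786 without swelling, 2466, 3412 and 1309 in mild, 569, 848 and 681 in moderate and 487, 647 and 1278 in severe swelling. Naive arrays and those without swelling overlapped, and all moderate and severe arrays lay below all mild ones. Against naive it fell by 1.17 ± 0.33 in mild (limma adjusted p = 0.0102), by 2.84 ± 0.33 in moderate (3.77e-06) and by 2.74 ± 0.33 in severe swelling (5.09e-06) on the log2 scale. It was the only ribosomal protein gene called between moderate and mild swelling, where 6.73% of all genes were called (-1.67 ± 0.33, limma adjusted p = 0.0116); without replicate 2 of mild swelling that call was lost, and without replicate 3 the call in mild against naive was lost.

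Skeletal muscle markers fell in part of these comparisons. Of 12 markers 0 were called in either direction without swelling, where 3.28% of all genes were called. There Myh7 stood at -3.15 ± 0.88 (limma adjusted p = 0.0639) and Myl3 at -2.90 ± 0.79 (0.0576) and the median was 0.14. None were called higher against naive in the other groups. Lower against naive were 6 in mild, 10 in moderate and 4 in severe swelling. Among all genes 17.1%, 23.8% and 22.9% were called lower in these groups, and 55.2% were called in either direction in severe swelling. The summed signal of the 12 markers was 87748 to 100989 on naive arrays, 93560 to 99423 without swelling, 61262 to 66907 in mild, 42826 to 70951 in moderate and 66052 to 95842 in severe swelling. No marker was near 0 on the naive arrays. The 4 that fell in severe swelling, Myh2, Myh7, Myl2 and Myl3, mark oxidative or slow fibres and had log2 differences of -3.57, -4.11, -4.44 and -5.37, while Ckm (-0.03), Acta1 (0.10) and Myh4 (0.10), the last a marker of fast fibres, did not pass. The median of the 12 was -0.22 in severe swelling against naive and 0.37 in severe against moderate swelling, with 0 called there. Eef1a2, the elongation factor of adult muscle, averaged 4714 ± 477 in severe swelling and 8340 ± 451 in naive synovium (SD, n = 3 each), a log2 difference of -0.82 ± 0.12. Their part in the fall of Rpl3l was not tested.

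Rpl39l had signals of 102, 79.2 and 78.9 on naive arrays, 115, 125 and 70.8 without swelling, 185, 217 and 279 in mild, 502, 270 and 488 in moderate and 262, 427 and 245 in severe swelling. Arrays with swelling lay above all others. The log2 difference of severe from naive was 1.64 ± 0.26 (limma adjusted p = 5.94e-05), and that of mild from no swelling 1.03 ± 0.26 (0.0051). The parent gene Rpl39, through a dim probe set, differed by 0.11 ± 0.16 in severe swelling (0.584). Rps4l, annotated as a transcribed pseudogene, had a signal of 17.7 to 59.6 in severe swelling and 3.1 to 7.8 on naive arrays. Those naive signals lie below the median of all probe sets on the same arrays, 38.6 to 41.8, so no fold is given. Its parent Rps4x rose by 0.47 ± 0.14.

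Rpl22 and Rpl22l1 diverged with the deposited scaling. Rpl22 had 4751, 5035 and 5211 in severe swelling and 3414, 3528 and 3732 on naive arrays, with no overlap (0.49 ± 0.12, limma adjusted p = 0.00198). Rpl22l1 had 1866, 2404 and 2509 in severe swelling and 2948, 3016 and 2948 on naive arrays, also without overlap (-0.40 ± 0.14, limma adjusted p = 0.0264). The call on Rpl22l1 was lost after quantile normalization (-0.14, adjusted p = 0.397), when any naive array or replicate 1 of severe swelling was left out, and its sign turned when arrays were aligned on hybridization controls (0.11). Rps27l, a p53 target, stood at 0.42 ± 0.18 in severe swelling (limma adjusted p = 0.0551) and its parent Rps27 at 1.24 ± 0.34 (0.00588). Rpl7l1 (-0.21 ± 0.13) and Rps19bp1 (0.28 ± 0.13), which are not ribosome subunits, did not pass, while the other 2 probe sets of Rpl7l1 were called higher (0.60 and 0.35, limma adjusted p = 0.00675 and 0.0446).

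The onset of swelling was examined by comparing mild with no swelling, both immunized. Limma called 5 of 49 genes higher and 8 lower, where 38.5% of all genes were called (23% higher and 15.6% lower). The groups did not overlap in 25 of 49 genes, where 46.3% of all genes did not overlap. The median was -0.22, against 0.09 over all genes. Higher were Rpl39l, Rpl12, Rps25, Rps19bp1 (0.39 ± 0.13, or 0.21 and not called after quantile normalization) and, through the filter, Rps4l, and lower were Rpl3l (-1.08), Rpl4 (-0.49), Rps14 (-0.42), Rpl22l1 (-0.40), Rps29 (-0.36) and 3 more bright subunit genes, Rps28, Rps4x and Rpl7a. After quantile normalization 9 were higher and 0 lower with a median of 0.17, and with array medians aligned 3 were higher and 25 lower with a median of -0.39. The direction of the bright subunit genes at this step therefore depends on the scaling.

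Later steps held few calls. Moderate against mild swelling gave 0 genes higher, where 3.3% of all genes were higher, and 1 lower, Rpl3l, where 3.43% were lower, and the median was 0.05, or -0.095 with arrays aligned on hybridization controls. Groups did not overlap in 3 of 49 genes, where 26.7% of all genes did not overlap. Severe against moderate swelling gave 0 calls among the 49 genes and 0% among all genes by limma; at an unadjusted p under 0.05 there were 14 of 49 genes and 889 of 14315. The median was 0.24, against 0.03 over all genes, but it was -0.033 after quantile normalization and 0.12 without replicate 1 of moderate swelling, so its direction depends on the scaling; 12 of 49 genes did not overlap, where 11.1% of all genes did not overlap. Rpl41 (0.62 ± 0.19), Rps15 (0.42 ± 0.14) and Rps2 had the lowest p in this step.

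The 18S ribosomal RNA of the small subunit has 3 control probe sets on the array. How much of an RNA without a poly(A) tail is labelled by the protocol, named only as Affymetrix's, could not be settled from the files, so these signals are not taken as amounts of 18S RNA. The 5′ probe set had signals of 124, 631 and 255 on naive arrays, 8115, 3153 and 6336 without swelling, 202, 494 and 430 in mild, 163, 2241 and 3869 in moderate and 764, 505 and 6237 in severe swelling. The arrays without swelling lay above all naive and mild arrays, and moderate and severe swelling each held arrays of both kinds. The 5′ probe set differed by 4.23 ± 1.01 without swelling against naive (limma over 45101 probe sets, adjusted p = 0.0518), by 2.23 ± 1.01 in severe swelling (0.103), and by -3.90 ± 1.01 in mild against no swelling (0.012). The 3′ probe set differed by 0.79 ± 0.81 without swelling (0.737), 2.03 ± 0.81 in moderate (0.0641) and 2.06 ± 0.81 in severe swelling (0.061), so the probe sets of this single RNA did not move alike. Ribosomal protein signal was highest on the same array as the middle 18S probe set in 4 of the 5 groups, as the 3′ one in 3 and as the 5′ one in 2. The part of the 18S signals in the ribosomal protein values was not tested.

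Other genes of translation were described by lists with the same limma fit, in which 55.2% of all genes were called in severe swelling (32.3% higher and 22.9% lower) with a median of 0.11. Fau, which codes for a ubiquitin-like protein fused to the small subunit protein S30, rose by 1.0 ± 0.16 in severe swelling (adjusted p = 9.07e-05), and it was the only 1 of 4 ribosomal protein symbols outside the naming rule with a gene of its own on the array. Of 14 elongation factors and other TOP mRNAs tested 5 were called higher and 1 lower in severe swelling, with a median of 0.01. Pabpc1, the poly(A)-binding protein, rose by 1.23 ± 0.13, Eef1a1, which brings aminoacyl-tRNA to the ribosome, by 1.16 ± 0.19 and Npm1, a nucleolar chaperone, by 0.92 ± 0.15, while Eef2 (-0.10 ± 0.10) and Tpt1 (0.07 ± 0.18) did not pass.

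Of 25 initiation factors 4 were higher and 9 lower in severe swelling, with a median of -0.02. Lower calls outnumbered higher ones, whereas among all genes 32.3% were higher and 22.9% lower. Eif4a1, the helicase that unwinds mRNA, rose by 1.52 ± 0.19, whereas Eif2b1 (-1.53 ± 0.22) and Eif2b3 (-1.23 ± 0.13), of the exchange factor that recharges eIF2, fell. Of 40 ribosome biogenesis genes 12 were higher and 5 lower (median 0.08), a smaller share called than among all genes. Among them Fbl, which methylates ribosomal RNA, rose by 1.19 ± 0.14, Nhp2 by 0.55 ± 0.12, and Pno1, of small subunit maturation, fell by 1.0 ± 0.15. Of 14 RNA polymerase I genes 3 were higher and 1 lower (median 0.00), Taf1d and Polr1c rising by 1.31 ± 0.16 and 0.99 ± 0.21 and the initiation factor Rrn3 falling by 0.88 ± 0.19.

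Of 18 growth and mTOR regulators 5 were higher and 7 lower in severe swelling (median -0.17), where 32.3% of all genes were higher and 22.9% lower. Myc, which drives ribosomal genes, rose by 2.57 ± 0.21, Akt1 by 1.89 ± 0.16 and Ddit4, an inhibitor of mTOR, by 3.11 ± 0.42. Of 10 genes of eIF2 kinases and the integrated stress response 2 were higher, Eif2ak3 (1.86 ± 0.19) and Asns (1.5 ± 0.19), and 2 lower, Chac1 (-1.32 ± 0.22) and Eif2ak1. Without swelling, where ribosomal protein genes stood at a median of 0.37, the 14 elongation factor and TOP genes had a median of 0.32 with 1 called, and the 40 biogenesis genes a median of 0.10 with 2 called, both higher. All genes had a median of -0.01 in that comparison, and 3.28% of them were called (1.52% higher and 1.76% lower).

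Cell type markers changed in the same comparisons. In severe swelling all 8 synovial fibroblast, all 8 macrophage and all 6 neutrophil markers tested were called higher, with medians of 2.69, 2.49 and 4.44, as were all 7 cell cycle genes (3.10). Among all genes 55.2% were called there (32.3% higher and 22.9% lower). Of 5 adipocyte markers 4 were lower (median -1.88), as were 2 of 3 keratinocyte markers. Of 4 erythroid markers 2 were lower and 1 higher. All 5 cartilage, 2 of 5 endothelial and 2 of 3 T cell markers were higher. Of 5 B and plasma cell markers 1 was higher and 1 lower. The summed signal of the fibroblast markers was 29638 to 42753 in severe swelling and 11652 to 12358 on naive arrays, and that of the neutrophil markers 9324 to 13294 in severe swelling and 123 to 153 on naive arrays. Without swelling 4 of 6 neutrophil markers, 2 of 8 fibroblast markers and 2 of 7 cell cycle genes were called higher, and 0 of 8 macrophage markers, where 1.52% of all genes were called higher. Their part in the rise of ribosomal protein genes was not tested.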

How the data were processed

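Per the submitters' processing notes the authors computed intensity signals with MAS5 (no version is stated there). The intensity values as deposited were linear, with a trimmed mean (2% at each end) of 150 on every array. Gene names came from the platform annotation, which can be old; for each of 18194 genes the probe set with the highest mean over 15 arrays was kept. Signals were used as log2(signal + 16), which understates folds of dim genes. Genes above the array's 40th percentile on at least 3 arrays were tested (14315, of them 49 ribosomal protein genes) in 1 limma model over all 15 arrays (R 4.3.3, limma 3.58.1; group means, intensity trend, 10 residual and 5.52 prior degrees of freedom), with Benjamini-Hochberg adjustment over all genes and a two-sided threshold of 0.05. SE values are limma's. An exact permutation test of 3 against 3 arrays cannot give a p below 0.1. The genes and lists were chosen with earlier results of these data known. Genes named were the extremes of each comparison, the 8 brightest, up to 3 with the lowest p per step and a panel of paralogues, their parents and well known subunits; Rps9 and Rpl37 were named after their values were seen. Rpl3, Rpl5, Rpl10, Rpl10l, Rpl36a, Rpl36al and Rplp1 of the panel were on no probe set naming 1 gene alone. Sequences are from RefSeq (GRCm38.p6), for 44 of 51 genes. On data simulated for severe against naive (14315 genes), shifts of 0.5, 1, 2 and 3 on the log2 scale were recovered for 20%, 66%, 98% and 100% of genes. Of the genes called there 7.19% were false. Far fewer genes were shifted there than were called in the data, so these shares need not hold for the data. Equal replicate numbers did not mark shared samples: deviations from group means had a median correlation of -0.04 at the same number and 0.02 at others. Alternatives covered pseudocount, filter, scaling, choice of probe set, array weights, replicate block and each array left out.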

Additional observations from a re-analysis of the deposited data

How the results depend on the processing

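The direction of every called gene named for severe swelling held under pseudocounts of 1 and 64, other filters, array weights, the replicate block and each array left out; scaling and choice of probe set changed more. Counts are of ribosomal protein genes called by limma, and 3 arrays a group limit all of them. No share of all genes called is given beside these counts, so they do not show whether other genes changed alike. Signal near background limits Rps4l, Rps16 and the dim probe sets.

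After quantile normalization the counts were 38 higher in mild and 38 in moderate swelling against naive, 1 lower in severe swelling, 9 higher and 0 lower in mild against no swelling and 1 higher in moderate against mild, and the medians were 0.23 without swelling, 0.40 in mild and 0.54 in moderate swelling. With array medians aligned they were 16 higher in severe, 2 lower in mild and 2 lower in moderate swelling, 3 higher and 25 lower in mild against no swelling, with medians of 0.057 in mild and 0.23 in severe swelling; in severe swelling Rpl39 (-0.096), Rpl4 (-0.066), Rps14 (-0.028), Rps15 (-0.017), Rps20 (-0.0096), Rps24 (-0.098), Rps29 (-0.089) and Rps7 (-0.016) changed sign. With hybridization controls aligned they were 0 higher without swelling, 35 higher and 0 lower in mild, 28 higher in moderate, 1 lower in severe, and 16 higher and 0 lower in mild against no swelling, with medians of 0.23, 0.80, 0.73 and 0.96 for no swelling, mild, moderate and severe swelling; Rpl22l1 (0.11) and Rpl7l1 (0.28) changed sign. The 18S probe sets then passed, the 5′ one without swelling (4.07), in moderate (2.45) and severe swelling (2.71), the 3′ one in moderate (2.50) and severe swelling (2.54) and the middle one in moderate (1.16) and severe swelling (1.34), and the middle one in mild swelling turned to 0.38.

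Centred on the bright subunit genes, a choice made after seeing the data that subtracts their common shift, counts were 0 higher and 1 lower without swelling, 2 lower in mild, 9 higher and 7 lower in moderate, 8 higher and 7 lower in severe, and 1 lower in mild against no swelling. In severe swelling Rpl10a (-0.013), Rpl14 (-0.078), Rpl27 (-0.085), Rpl27a (-0.051), Rpl37 (-0.12), Rpl39 (-0.35), Rpl4 (-0.31), Rpl6 (-0.073), Rpl7 (-0.18), Rpl7a (-0.12), Rpl8 (-0.095), Rplp0 (-0.0079), Rps10 (-0.12), Rps14 (-0.27), Rps15 (-0.26), Rps19bp1 (-0.18), Rps2 (-0.051), Rps20 (-0.25), Rps24 (-0.34), Rps27l (-0.044), Rps28 (-0.13), Rps29 (-0.33) and Rps7 (-0.26) changed sign.

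Array quality weights gave 17 higher without swelling, 24 higher and 2 lower in mild, 2 lower in moderate, 20 lower in mild against no swelling, and 2 higher and 2 lower in moderate against mild. Over every probe set, which counts probe sets rather than genes, 17 were higher without swelling, 28 in mild, 46 higher and 2 lower in moderate, 71 higher in severe and 12 higher in mild against no swelling, with a median of 0.26 in mild. The mean of probe sets gave 17 higher in mild (median 0.25), 5 lower in mild against no swelling and 0.25 for Rpl7l1. Without the filter 2 were higher without swelling and 3 lower in mild against no swelling; without the intensity trend these were 2 and 5, and without x or s probe sets 5 were lower in mild against no swelling and Rps20 turned to -0.16 in severe swelling. Fitting only the groups compared gave 18 higher without swelling, 2 lower in moderate and 0 lower in moderate against mild. Without both moderate replicate 1 and severe replicate 3, chosen after seeing the data, 7 were higher without swelling. A pseudocount of 1 moved the 5′ 18S probe set past the threshold without swelling (4.32). The cause was not tested.

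Replicates share only a number, and 3 of 15 arrays correlated best with their own number. With the replicate block 2 genes were higher without swelling and 2 lower in moderate swelling, and the 18S probe sets passed at 4.23 (5′, no swelling), 2.03 (3′, moderate) and 2.06 (3′, severe). Leaving out each array gave 0 to 7 higher without swelling, 0 to 1 lower in mild, 11 to 25 higher and 1 to 2 lower in moderate, 1 to 2 lower in severe, 3 to 6 higher and 2 to 11 lower in mild against no swelling, and 0 to 2 higher and 0 to 1 lower in moderate against mild. The 5′ 18S probe set then ran over 3.71 to 4.81 without swelling, -0.19 to 0.91 in mild, 1.13 to 3.35 in moderate and 1.13 to 2.93 in severe swelling, the middle one over -0.42 to 0.039 in mild, 0.36 to 1.38 in moderate and 0.34 to 1.37 in severe swelling, and the 3′ one over 1.40 to 3.08 in moderate and 1.18 to 2.68 in severe swelling.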

Other observations

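The 110 probe sets that list a ribosomal protein symbol among several symbols were fitted with all 45101 probe sets, since the signal of near-identical copies cannot be assigned to a gene there; 105 of them passed the filter on low signal. In severe swelling against naive limma called 61 higher and 3 lower with a median log2 fold change of 0.50, 61% of those tested, where 46.7% of all 31522 probe sets past the same filter were called. Without swelling 8 were higher and 0 lower with a median of 0.38, 7.62%, where 1.92% were called. In mild swelling 24 were higher and 1 lower (median 0.24), 23.8% called against 31.3% of all, and in moderate swelling 46 were higher and 3 lower (median 0.35), 46.7% called against 46.6% of all.

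Probe sets of the same gene differed in size. For Rpl22 the 3 probe sets gave 0.49, 1.5 and 0.093 in severe swelling against naive, the last not called by limma (adjusted p = 0.637). For Rps10, a small subunit protein, all 6 were called higher, from 0.34 for the brightest to 1.22 for the dimmest.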
